A study of Homo sapiens with 4 samples.

Results

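CYP1B1, a cytochrome P450 enzyme that oxidizes estrogens and polycyclic aromatic hydrocarbons, is a textbook target gene of the aryl hydrocarbon receptor (AHR). It was followed here together with 6 further genes of that pathway, AHR itself, its partner ARNT, its repressor AHRR, and the target genes CYP1A1, CYP1A2 and TIPARP. Members were taken as the probe sets whose only gene symbol in the platform annotation is one of these 7 names. This gave 1 probe set each for 6 of the 7 genes, out of 18404 genes measured by a probe set with 1 symbol. AHRR is carried by 1 probe set that bears several symbols, and no value is given for it.

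The cells were U87MG, an established human glioblastoma line, and all of them went through transfection with an siRNA. The experiment held 2 arrays from cells with the CASP2 siRNA, which silences the caspase-2 gene, and 2 arrays from cells with the control siRNA. Each array is labelled as a biological replicate, but the labels do not say whether the replicates were separate cultures, so the errors measure only the spread between these arrays. The deposited values are log2 values for 32321 probe sets per array.

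CASP2 mRNA was at a log2 value of 8.79 and 8.52 on the CASP2 siRNA arrays, against 10.74 and 10.69 on the control siRNA arrays, or 4.17-fold lower. All 6 markers of glioma and mesenchymal cells, among them VIM and CD44, lay above the median of every array, while 7 of the 9 measured markers of other cell types did not. Of these 9, PTPRC and ALB, markers of leukocytes and hepatocytes, lay below the lower quartile of every array, but GFAP, of astrocytes, and SYT1, of neurons, lay above the median of every array. The median log2 value of all probe sets was 6.18 and 6.28 on the CASP2 siRNA arrays, against 6.21 on each control siRNA array. The arrays of the silenced cells differed from each other more (SD of the difference over probe sets 0.348) than the control arrays did (0.205).

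AHR is a transcription factor that waits in the cytosol in a complex with HSP90 chaperones until a ligand binds. Ligands include dioxins, polycyclic hydrocarbons and the tryptophan product kynurenine, which glioma cells can make. Bound AHR enters the nucleus, pairs with ARNT and binds DNA at the xenobiotic response element, whose core is GCGTG. Its targets CYP1A1, CYP1A2 and CYP1B1 encode enzymes that break down such ligands, while AHRR competes with AHR and TIPARP, a poly(ADP-ribose) polymerase, lowers AHR activity, so that the pathway limits itself.

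The core was searched on both strands, as GCGTG or CACGC, in RefSeq promoter windows (GRCh38.p14) that run from 250 bases before to 50 bases after a start. The same letters are also one form of the core bound by hypoxia-inducible factors. At least 1 match lay in 5 of the 9 windows of the members (55.6%, 6 genes matched by symbol, CYP1B1 not among them) and in 36.5% of all 35116 windows. The windows of the members also held more CG pairs (median 26, against 14 in all windows), and the core contains CG. The parts of 2 windows upstream of the start are printed because CYP1A1 and TIPARP are the classical targets whose values are set beside CYP1B1 here. Capitals mark the core, and both read 5′ to 3′ along the strand of the gene. The CYP1A1 stretch is chr15:74725529-74725778 (minus strand) and the TIPARP stretch is chr3:156674340-156674589 (plus strand).
CYP1A1: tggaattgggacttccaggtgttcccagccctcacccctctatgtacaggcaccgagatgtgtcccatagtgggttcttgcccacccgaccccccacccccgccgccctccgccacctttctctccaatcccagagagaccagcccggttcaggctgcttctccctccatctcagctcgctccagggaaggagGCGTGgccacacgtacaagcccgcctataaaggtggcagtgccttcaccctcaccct
TIPARP: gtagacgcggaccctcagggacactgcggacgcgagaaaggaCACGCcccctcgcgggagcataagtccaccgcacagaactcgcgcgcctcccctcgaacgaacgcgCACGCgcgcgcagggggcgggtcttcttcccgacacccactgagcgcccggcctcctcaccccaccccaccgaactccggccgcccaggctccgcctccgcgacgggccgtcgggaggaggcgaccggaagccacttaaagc
The single core of CYP1A1 begins 57 bases before the start, and the cores of TIPARP begin 208 and 142 bases before it. Among the other windows, those of CYP1A2 and ARNT and those at the further starts of TIPARP held none. A match describes letters only, and the enhancer through which AHR is known to act on CYP1A1 lies farther upstream than this window.

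The first question was what level each member had after caspase-2 silencing. CYP1B1 had log2 values of 10.65 and 10.50 on the CASP2 siRNA arrays, against 10.07 and 9.89 on the control siRNA arrays. Both silenced arrays lay above both controls, and replicate 1 was the higher array within each group. The means were 10.58 ± 0.11 in silenced cells and 9.98 ± 0.13 in control cells (SD, n = 2 each), a log2 difference of 0.60 or 1.51-fold. This gene was singled out by the study from these same arrays, at a fold above 1.5 with a p under 0.05, so its values are a description and no test is given. It lay just inside that fold, and the nearest other member was AHR at 1.26-fold. Without control siRNA replicate 2 the fold of CYP1B1 was 1.42 and without CASP2 siRNA replicate 1 it was 1.43, both outside it. By limma, with an unadjusted p, 0.331% of all probe sets lay past these thresholds in the direction of an increase and 0.362% in the direction of a decrease, and CYP1B1 was the 1 member among them. The methods' t-test put fewer probe sets past them, 35 higher and 37 lower against 107 and 117 by limma. Without probe sets below the median on all arrays limma gave 34 and 41. Apart from the arrays, the study reports higher CYP1B1 mRNA by qRT-PCR in silenced U87MG cells and unchanged levels in silenced IMR90-E1A fibroblasts. For U87MG cells it reports similar results with another CASP2 siRNA and another control siRNA, from a different provider. The study also reports higher CYP1B1 mRNA after caspase-8 silencing in U87MG cells.

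AHR, the receptor, had log2 values of 11.06 and 11.01 in silenced cells, against 10.74 and 10.66 in control cells. The lower silenced array stood 0.27 above the higher control array, more than the distance between arrays within either group. The log2 difference was 0.33 (SE 0.093, 95% confidence interval 0.085 to 0.58, 1.26-fold). The limma fit over all probe sets gave an unadjusted p of 0.019 and an adjusted p of 0.9999, so the difference did not pass. No probe set passed this adjustment, and CASP2, 4.17-fold lower, also had an adjusted limma p of 0.9999. Not passing therefore says little about a single gene. Of the 18404 genes, 171 (0.929%) had a larger increase than AHR and 10 a larger one than CYP1B1. Fits that each dropped a single array gave log2 differences of AHR between 0.30 and 0.37. By the methods' t-test the unadjusted p of AHR was 0.11, so the low unadjusted p depends on the fit.

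ARNT, the nuclear partner that AHR shares with the hypoxia-inducible factors, had log2 values of 9.74 and 9.60 in silenced cells, against 9.56 and 9.66 in control cells. The groups overlapped, and the log2 difference was 0.060 with an interval of -0.22 to 0.34. This interval leaves room for an increase of up to 1.27-fold.

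TIPARP, a target induced by AHR in many cell types, had log2 values of 10.71 and 10.63 in silenced cells, against 10.55 and 10.46 in control cells. Both silenced arrays were above both controls, as for CYP1B1 and AHR, but by a gap of 0.083. The log2 difference was 0.17 (SE 0.097, interval -0.093 to 0.42, 1.12-fold) and did not pass the adjusted limma test (adjusted p = 0.9999). The upper end of the interval is 1.34-fold.

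CYP1A1, the target most often used to read AHR activity, had log2 values of 4.65 and 4.87 in silenced cells, against 4.79 and 4.68 in control cells. The groups overlapped fully, with a log2 difference of 0.023 and an interval of -0.30 to 0.35, whose upper end is 1.27-fold. All 4 values lay below the median of their array and near the lower quartile of 4.39 to 4.42, a range in which the summary of probes compresses differences. CYP1A2, its neighbor on chromosome 15, had log2 values of 6.08 and 6.36 in silenced cells, against 6.11 and 6.13 in control cells. One silenced array was above and the other below both controls, and the log2 difference was 0.099 with an interval of -0.25 to 0.44. In both genes CASP2 siRNA replicate 2 was the highest array, which was also the array with the highest median over all probe sets, and the part of that shift in these values was not tested. Without this array the log2 differences were -0.090 for CYP1A1 and -0.043 for CYP1A2.

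**Figure D1:**
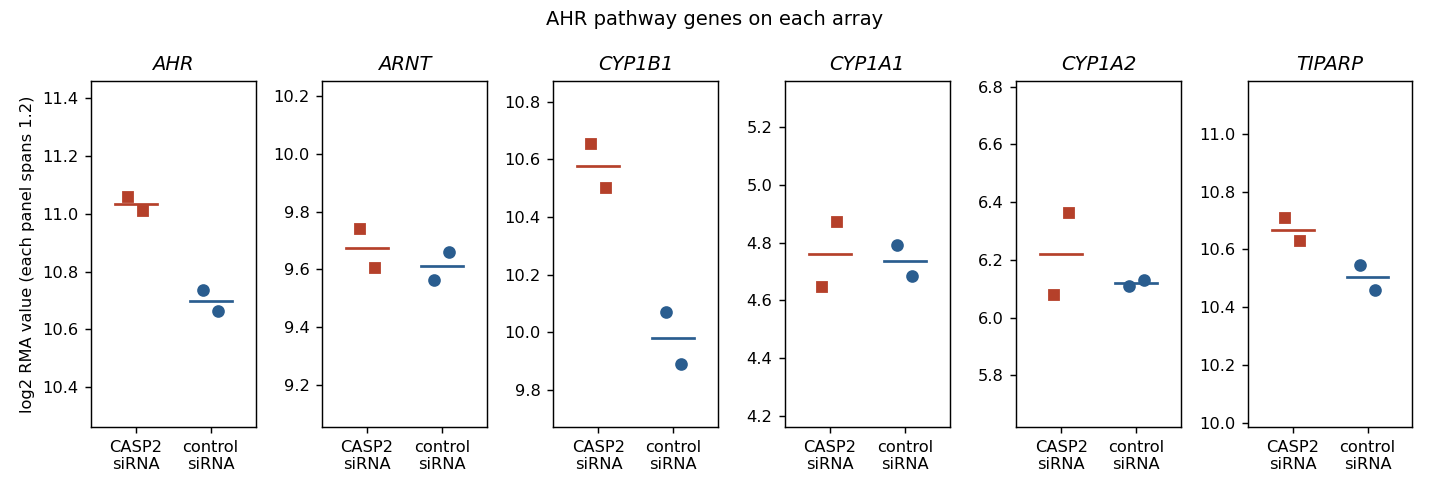
Log2 RMA value (y axis, 1.2 log2 units in every panel) of the 6 measured members on each array, with CASP2 siRNA arrays as squares, control siRNA arrays as circles, replicate 1 left of replicate 2 and group means as lines. The silenced arrays lie above the controls for CYP1B1 (log2 difference 0.60), AHR (0.33) and TIPARP (0.17), and the groups overlap for ARNT, CYP1A1 and CYP1A2.

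Of the 5 measured members other than CYP1B1, all had a log2 difference above 0 (median 0.099), 2 had both silenced arrays above both controls, 3 overlapped and none was past the thresholds of the study. Over all 18404 genes, each by its brightest probe set, the median was -0.00089 and 49.7% had a log2 difference above 0. Both silenced arrays lay above both controls for 14.6% and below them for 16.4%, and 34 genes were past the thresholds.

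The second question was whether further AHR target genes were higher as CYP1B1 was. The list holds 22 genes reported as AHR targets in one mammalian species or another, of which 19 were measured. None of the 19 was past the thresholds of the study, against 34 of all 18404 genes, a share at which 0 of 19 says little. None of the 19 passed the adjusted limma test (0 of 32321 probe sets did, or 0%, and 0 did by the methods' t-test after the same adjustment). At an unadjusted p under 0.05 there was 1, against 2.1% of all genes. The log2 difference was above 0 in 13 of 19, beside 49.7% of all genes, and the median was 0.075. In 7 of 19 both silenced arrays lay above both controls and in 0 of 19 below them, against 14.6% and 16.4% of all genes. These 7 were STC2, GSTA2, IL6, PTGS2, ABCG2, NQO1 and NFE2L2, named after their values were seen. The gap between the groups was 0.28 for STC2 but small for the rest. It was 0.061 for GSTA2, 0.038 for NFE2L2, 0.026 for NQO1, 0.017 for PTGS2, 0.011 for ABCG2 and 0.0074 for IL6.

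STC2, a secreted glycoprotein reported as an AHR target in the mouse, had the smallest p of the list. Its log2 values were 10.09 and 10.15 in silenced cells, against 9.76 and 9.82 in control cells, a log2 difference of 0.33 (interval 0.086 to 0.58). This is about the size seen for AHR, with no overlap between the groups. The SDs of STC2, 0.038 and 0.036, lay below the minimum SD of 0.12 in the methods' t-test, so its low p depends on the fit.

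IL6, an inflammatory cytokine, had the largest difference of the list, 0.36, but the wide interval of -0.15 to 0.87. Its log2 values were 7.54 and 7.81 in silenced cells, against 7.10 and 7.53 in control cells. The lower silenced array stood only 0.0074 above the higher control. PTGS2, the inducible cyclooxygenase, was similar, with log2 values of 8.50 and 8.26 in silenced cells, against 7.99 and 8.25 in control cells, and a log2 difference of 0.26 (interval -0.13 to 0.65). The rest of the 7 included GSTA2, a glutathione transferase, which lay below the lower quartile of every array, and ABCG2, a drug efflux pump, at 0.19 (interval -0.14 to 0.52).

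NQO1, a quinone reductase of the classical AHR battery that NRF2 also controls, had log2 values of 12.55 and 12.50 in silenced cells, against 12.48 and 12.43 in control cells. The log2 difference was 0.075 with an interval of -0.17 to 0.32, so an increase above 1.25-fold lies outside it. NFE2L2, which encodes NRF2, was at 0.053 (interval -0.18 to 0.29). ALDH3A1, an aldehyde dehydrogenase of the same battery, had log2 values of 5.95 and 6.34 in silenced cells, against 6.09 and 5.99 in control cells. Its groups overlapped, and CASP2 siRNA replicate 2 was again the highest array. CYP2S1, a further P450 target, was at 0.015 (interval -0.33 to 0.36). IL1B, a cytokine, had the widest spread, with log2 values of 8.87 and 8.20 in silenced cells, against 8.48 and 8.74 in control cells. The lowest log2 difference of the 19 was that of NEDD9, a focal adhesion scaffold, at -0.087. NEDD9 lay below the median of every array.

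**Figure D2:**
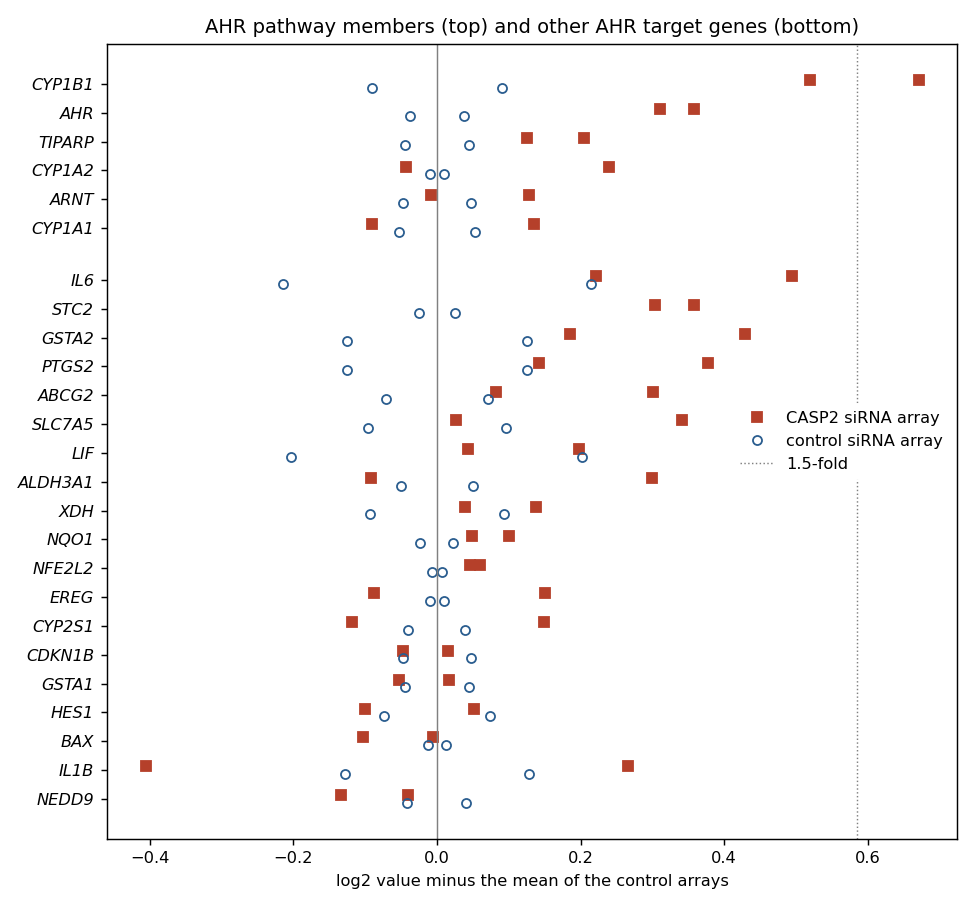
Distance of each array from the control siRNA mean, in log2 units (x axis), for the 6 measured members (upper block) and the 19 measured further AHR target genes (lower block), with CASP2 siRNA arrays as filled squares and control siRNA arrays as open circles. The dotted line marks 1.5-fold. CYP1B1 lies farthest to the right with a mean of 0.60, and no gene of the lower block has a mean above 0.36.

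The promoter windows of the 22 listed further targets, measured or not, held the core in 12 of 28 windows (42.9%), against 36.5% of all windows. Their median number of CG pairs was 12, against 14 in all windows. The 20 genes matched by symbol include 9 with at least 1 core.

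The machinery around the receptor was then examined. For the cytosolic AHR complex, 4 genes were measured and are given here. HSP90AA1 and HSP90AB1, the cytosolic HSP90 genes, were at log2 differences of -0.0090 and -0.028, with intervals of -0.27 to 0.25 and -0.27 to 0.21. PTGES3, the co-chaperone p23, had log2 values of 10.65 and 10.57 in silenced cells, against 10.76 and 10.72 in control cells, a difference of -0.13. SRC, a tyrosine kinase found in the complex, was at 0.13 (interval -0.11 to 0.37). No gene of this group passed a test.

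Of 19 relatives of AHR in the bHLH-PAS family and coactivators, 18 were measured. Of these, 12 had a log2 difference above 0 (median 0.045), beside 49.7% of all genes. NPAS3, a neuronal family member, had the smallest p, with log2 values of 4.64 and 4.72 in silenced cells, against 4.45 and 4.42 in control cells. These values lay below the median of every array and near the lower quartile of 4.39 to 4.42. ARNT2, the ARNT paralog of neural tissue, had log2 values of 8.48 and 8.29 in silenced cells, against 8.52 and 8.59 in control cells, and CLOCK, of the circadian oscillator, was at 0.12 (interval -0.12 to 0.36). HIF1A and EPAS1, the oxygen-regulated subunits that compete for ARNT, were at 0.032 (interval -0.27 to 0.33) and 0.061 (interval -0.18 to 0.30). Both silenced arrays lay above both controls in 6 of the 18 and below them in 2, against 14.6% and 16.4% of all genes. None passed the adjusted test, and none had an unadjusted p under 0.05.

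Tryptophan breakdown supplies kynurenine and other AHR ligands. Of 15 genes listed for these enzymes and their amino acid transporters, 14 were measured. A log2 difference above 0 was seen in 8, beside 49.7% of all genes, and the median was 0.028. In 5 of the 14 both silenced arrays lay above both controls and in 3 below them, against 14.6% and 16.4% of all genes. KYAT1, a kynurenine aminotransferase, had the lowest log2 difference of the list, with log2 values of 7.92 and 7.88 in silenced cells, against 8.34 and 8.29 in control cells. The groups were separated by 0.37, and the log2 difference was -0.42 (interval -0.66 to -0.17, 1.33-fold lower, limma unadjusted p = 0.0080, adjusted p = 0.9999). The SDs of KYAT1, 0.029 and 0.034, lay below the minimum SD of 0.12 in the methods' t-test, so its low unadjusted p depends on the fit. TDO2, the tryptophan dioxygenase that makes kynurenine in gliomas, overlapped between groups, with log2 values of 7.58 and 6.89 in silenced cells, against 7.60 and 7.19 in control cells. In both groups replicate 2 was the lower array. Its log2 difference was -0.16, with the wide interval of -0.91 to 0.59.

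IDO1 and IDO2, the other enzymes of this step, lay below the lower quartile of every array. IDO2 was at log2 values of 4.25 and 4.17 in silenced cells, against 3.84 and 3.99 in control cells, a difference of 0.29 (interval 0.0099 to 0.57). IDO1 was at -0.11. SLC7A8, an amino acid transporter, was at 0.24 (interval -0.059 to 0.54). SLC7A5 and SLC3A2, the subunits of the transporter that imports tryptophan and kynurenine, were at 0.18 (interval -0.22 to 0.59) and 0.13 (interval -0.11 to 0.37). None of the 14 passed the adjusted test, and 2, KYAT1 and IDO2, had an unadjusted limma p under 0.05, as had 2.1% of all genes. The SDs of IDO2, 0.056 and 0.11, also lay below the minimum SD of 0.12 in the methods' t-test.

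Among P450 enzymes, 45 genes outside the CYP1 family were measured. A log2 difference above 0 was seen in 29 (median 0.047), beside 49.7% of all genes. None was past the thresholds of the study by its brightest probe set, against 34 of all 18404 genes. The largest difference was that of CYP2F1, at 0.24 (interval -0.047 to 0.52), a lung P450 with log2 values of 4.85 and 5.01 in silenced cells, against 4.66 and 4.74 in control cells. The lowest was that of CYP4V2, a fatty acid hydroxylase, at -0.23 (interval -0.54 to 0.079), and CYP4F11, also a fatty acid hydroxylase, was at 0.20 (interval -0.050 to 0.45). CYP2F1 and CYP4F11 lay below the median of every array. Of the 45, 8 had both silenced arrays above both controls (17.8%) and 4 below them (8.89%), against 14.6% and 16.4% of all genes. One gene of this list, CYP51A1, has a further, dimmer probe set at 0.80, which the study picked on these arrays.

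P450 enzymes need an electron supply and heme, and 9 of 10 listed partner genes were measured. POR, the reductase that feeds every microsomal P450, had log2 values of 10.25 and 10.21 in silenced cells, against 10.24 and 10.22 in control cells. Its log2 difference of -0.0032 had an interval of -0.24 to 0.24, so an increase above 1.18-fold lies outside it. The differences of all 9 lay between -0.084 and 0.062, the narrowest range of the 7 lists. In 1 of the 9 both silenced arrays lay above both controls and in 0 below them, against 14.6% and 16.4% of all genes. The smallest p values were those of CYB5R3, a cytochrome b5 reductase, at 0.062, FECH, the last enzyme of heme synthesis, at -0.084, and HMOX1, the inducible heme oxygenase, at -0.050.

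CYP1B1 turns estradiol into a catechol, and 14 of 15 genes listed for estrogen and catechol handling were measured. Their median log2 difference was 0.012, with 8 above 0, beside 49.7% of all genes above 0. In 1 of the 14 both silenced arrays lay above both controls and in 1 below them, against 14.6% and 16.4% of all genes. UGT2B7, a glucuronosyltransferase, had the most negative value, -0.51, but the interval was -1.32 to 0.30, its groups overlapped and it lay below the lower quartile of every array. CYP19A1, the aromatase, was at 0.17 (interval -0.12 to 0.45), HSD17B1, an estradiol-forming dehydrogenase, at -0.12 (interval -0.42 to 0.19) and GSTP1, a glutathione transferase, at 0.026 (interval -0.22 to 0.27). ESR1 and ESR2, the estrogen receptors, which also act on CYP1B1, were at 0.057 and 0.035. CYP19A1, ESR1 and ESR2 all lay below the median of every array. A further, dimmer ESR1 probe set was at 0.13 (interval -0.11 to 0.37), with both silenced arrays above both controls. None passed a test.

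**Figure D3:**
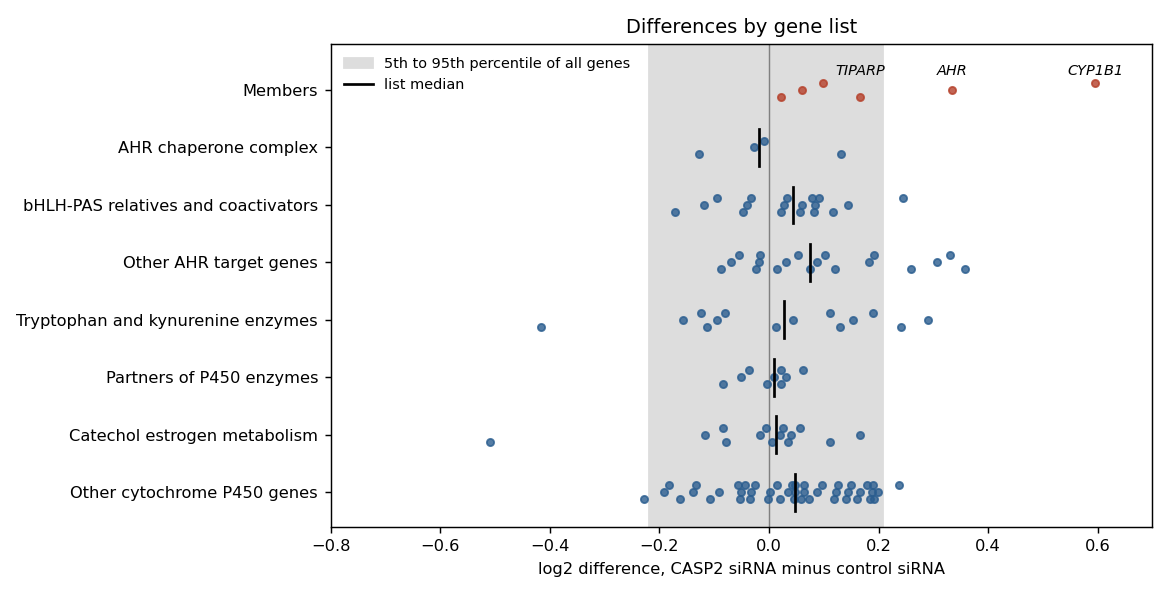
Log2 difference between CASP2 siRNA and control siRNA arrays (x axis) for the members and the genes of the 7 lists (rows), each point 1 gene and each black line a list median. The grey band runs between the 5th and the 95th percentile of all genes, -0.22 and 0.21. CYP1B1 (0.60) and AHR (0.33) lie outside the band, TIPARP (0.17) inside it, and the list medians lie between -0.018 and 0.075.

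Last, genes with a pattern over the 4 arrays most like that of CYP1B1 were sought among 11898 probe sets with 1 symbol and a mean above the median. Likeness was the root mean square difference of the 4 values after each probe set's own mean was subtracted. A small value requires a similar size of difference between the groups, while the order of arrays within a group can differ. Because CYP1B1 was picked for this pattern, the ranking is a description. The nearest were HIPK3, a homeodomain-interacting protein kinase (0.063), IPMK, an inositol phosphate kinase (0.078), CDS1, an enzyme of phospholipid synthesis (0.089), KCNE4, a potassium channel subunit (0.096), and YOD1, a deubiquitinase (0.099). HIPK3 had log2 values of 9.79 and 9.73 in silenced cells, against 9.29 and 9.21 in control cells. As in CYP1B1, replicate 1 was the higher array in both groups. IPMK and KCNE4 had this order too. In CDS1 (control log2 values 6.489 and 6.491) and YOD1 (8.01 and 8.03) control replicate 2 was the higher control array. The log2 differences of the 5 lay between 0.45 for KCNE4 and 0.51 for HIPK3, all below that of CYP1B1, and none of the 5 is in a list used here.

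By the same measure AHR ranked at place 39 of 11898 (0.14), TIPARP at 361 (0.22) and ARNT at 2324 (0.28). AHR and TIPARP shared the order of the arrays with CYP1B1, at smaller sizes. Promoter windows were matched for 4 of the 5 nearest genes, and the core lay in 3 of their 6 windows, against 36.5% of all windows. Their median number of CG pairs was 32.5, against 14 in all windows.

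**Figure D4:**
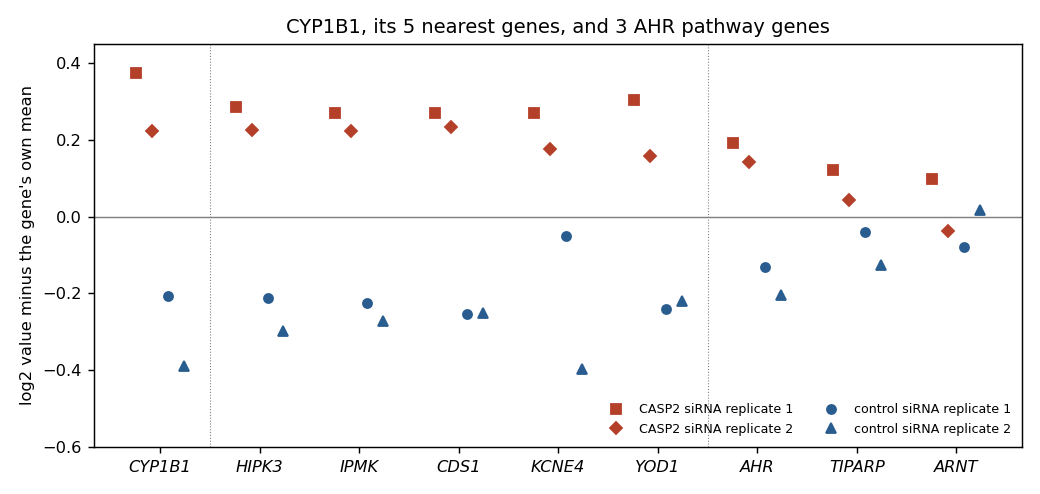
Log2 value on each array minus the gene's own mean over the 4 arrays (y axis) for CYP1B1, the 5 genes nearest to it and 3 members (x axis). Squares and diamonds are CASP2 siRNA replicates 1 and 2, and circles and triangles are control siRNA replicates 1 and 2. The 5 nearest genes show log2 differences of 0.45 to 0.51 beside 0.60 for CYP1B1, AHR and TIPARP have the same order of arrays at 0.33 and 0.17, and in ARNT the groups overlap.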

How the data were processed

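Total RNA of U87MG cells was isolated and labeled, and the labeled cRNA was hybridized to Affymetrix GeneChip Human Gene 1.0 ST arrays, 2 per group. The authors applied Robust Multi-Array Average (RMA) normalization, its version not stated in these sources, and deposited 1 log2 value for each probe set and array. RMA brings the probe values of all arrays to a common distribution and compresses differences near background. No column was left unmapped.

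Symbols came from the platform annotation, updated by gene ID through RefSeq (GRCh38.p14) for 19128 of the 19158 probe sets that carry a single symbol. The 1388 probe sets with several and the 11775 without any stayed in the tests unnamed. Silenced arrays were set against control arrays in limma 3.58.1 under R 4.3.3 (two-sided, 2 residual and 2.47 prior degrees of freedom), p-values adjusted by Benjamini-Hochberg across the 32321 probe sets, after a trial of the script on simulated data. With 2 arrays a group, no exact two-sided permutation p can fall below 0.333. The number of arrays limits the precision.

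Genes of the 7 lists were read by their brightest probe set. Named were all members, the 3 genes of smallest p per list, genes needed to describe a role, and the 5 genes nearest to CYP1B1. Members and lists were chosen with earlier results of these data known. Alternatives were the methods' t-test (pooled standard deviation raised to its median), trend and robust options of eBayes, a further quantile normalization, a block for the replicate number, single arrays left out, dim probe sets left out, linear means and all probe sets of a gene. The count of target genes with separated groups was recomputed under alternatives chosen after seeing the data.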

Additional observations from a re-analysis of the deposited data

How the results depend on the processing

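Against 107 higher and 117 lower probe sets past the thresholds of the study, the methods' t-test gave 35 and 37, and leaving out probe sets below the median on all arrays gave 34 and 41, with fewer probe sets tested. Leaving out single arrays gave 118 to 414 higher and 157 to 592 lower probe sets, the lone array of a group being assumed to vary like the others. The count of members past these thresholds, 1 in all other settings, ranged from 0 to 1, being 0 without control siRNA replicate 2 and without CASP2 siRNA replicate 1. The log2 difference of CYP1B1 ranged from 0.50 to 0.69 in the same fits. The count of further AHR target genes past these thresholds was 0 in every alternative run. Their median log2 difference, 0.075, was 0.069 after another quantile normalization and 0.052 to 0.061 with each array left out. The cause was not tested. The count of these genes with both silenced arrays above both controls, 7 of 19, was 6 of 19 after another quantile normalization, where 17.0% of all genes were so placed, and 6 of 15 without dim probe sets (13.8% of genes). With each array left out, which leaves fewer arrays to separate, it ranged from 8 to 11 of 19, beside 24.4% to 40.7% of all genes.

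The sign of some members turned with an array left out, over ranges of -0.090 to 0.14 for CYP1A1, -0.043 to 0.24 for CYP1A2 and -0.0077 to 0.13 for ARNT, while AHR and TIPARP stayed above 0 in each alternative. The arrays share only a replicate number across groups. Same-numbered deviations correlated at 0.0198 over probe sets, and with the replicate block 142 probe sets were higher and 160 lower, with CYP1B1 still the 1 member past the thresholds. The smallest adjusted p of any probe set was 0.062 among these alternatives, with the trend and robust options. CYP1A1 lay near the lower quartile of each array, where signal limits what can be seen.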
